A study of Homo sapiens with 4 samples.

Results

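The intraflagellar transport (IFT) and BBSome genes are the 34 genes listed for this machinery among the 58735 genes that the 4 RNA-seq tables report. They comprise 6 genes of the IFT-A complex, 7 of the IFT-B core, 5 of the IFT-B peripheral complex, 5 subunits of the kinesin-2 and dynein-2 motors, 2 ARL GTPases, 7 BBSome subunits and 2 chaperonins that assemble the BBSome. Members were matched by their GENCODE release 29 symbols. No measured value served as a criterion, but the members were chosen with earlier results of these data known. The labels name Huh7, an established human hepatocellular carcinoma line, for all 4 libraries. In a pair of them a short hairpin RNA was directed at NME7 (shNME7 1 and 2), and the other pair had a control hairpin (shCtrl 1 and 2). All 4 thus carry a hairpin, and no library without one is in the design. The labels give neither the hairpin sequences, nor the number of clones, nor the time after transduction. They do not say that replicates were separate cultures, so the p-values given here reflect the spread among libraries, which may be technical. NME7 encodes a nucleoside diphosphate kinase-like protein of the gamma-tubulin ring complex, which seeds microtubules.

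A primary cilium is a microtubule-based protrusion that many cell types build when they leave the cell cycle, and it depends on proteins brought in from the cell body. Kinesin-2 carries IFT trains, made of IFT-B and IFT-A, from the base to the tip, and dynein-2 returns them. IFT-B is mainly tied to the outward journey, and IFT-A to the return and to the entry of membrane proteins. The BBSome is a coat-like complex that rides on these trains and takes membrane proteins, signalling receptors among them, out of the cilium. Mutations of these genes cause ciliopathies such as Bardet-Biedl syndrome and short-rib skeletal dysplasias.

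The libraries held 14877906 to 16991397 fragments recovered from the deposited FPKM values (fragments per kilobase of exon and per number of fragments in the library), and 12854 to 13081 genes reached 1 FPKM. A tested member rested on 74 to 1596 fragments in a library. NME7 was at 3.64 and 3.93 FPKM in the shCtrl libraries and at 0.835 and 0.626 FPKM in the shNME7 libraries. In limma-trend on log2(FPKM + 1) its log2 difference was -1.47 (adjusted p = 0.310), and in limma-voom on the recovered fragments it was -2.39 (adjusted p = 0.000998). The hepatocyte-lineage markers did not bear out the liver label. ALB, AFP, APOA1, APOB, TTR, SERPINA1, FGB, TF and HNF4A summed to 0.0564 to 0.110 FPKM per library, 3 of these 9 were at 0 in all 4 libraries and 0 of 9 had a mean of 1 FPKM. Among fibroblast markers, 4 of 6 had a mean of at least 1 FPKM, with COL3A1 at 66.9 to 76.6 FPKM, although COL1A2 and DCN stayed at 0.0734 FPKM or less. The cells are therefore called by their label only. Of 13 markers of multiciliated cells, 0 had a mean of 1 FPKM, 3 were at 0 in all libraries (FOXJ1, DNAI2 and PIFO), and the sum was 2.30 and 2.16 FPKM in shCtrl and 2.44 and 2.21 FPKM in shNME7. Leukocyte markers summed to at most 0.277 FPKM, with 4 of 6 at 0 throughout. Endothelium markers summed to 2.29 and 1.94 FPKM in shCtrl and to 2.81 and 3.47 FPKM in shNME7, mostly from CDH5. In bulk RNA, fewer cells of a type and less RNA per cell cannot be told apart.

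Genes of this machinery are known targets of the RFX transcription factors, which bind the X-box, an inverted repeat whose arm reads GTTGCC. The 250 bases before each RefSeq start (GRCh38.p14) were searched for that arm on both strands and for the degenerate 14-letter RFX X-box, with overlap between both motifs allowed. Matching by symbol found 35 windows for 31 of the 34 members. WDR35, IFT22 and BBS9 had none. The arm was present in 13 of 35 member windows (37.1%) and in 3580 of 35116 windows in the table (10.2%). The whole X-box was present in 2 of 35 (5.71%), those of ARL6 and IFT57, and in 1.98% of all windows. These are matches of letters and not measured binding. Shown here are the 4 members with the greatest differences among those whose shNME7 and shCtrl libraries did not overlap and whose window held a match, to show where the arm sits in genes that lay on either side. Sequences run 5′ to 3′ on the strand of the gene, with capitals marking the arm and, in ARL6, the whole X-box.
TTC8: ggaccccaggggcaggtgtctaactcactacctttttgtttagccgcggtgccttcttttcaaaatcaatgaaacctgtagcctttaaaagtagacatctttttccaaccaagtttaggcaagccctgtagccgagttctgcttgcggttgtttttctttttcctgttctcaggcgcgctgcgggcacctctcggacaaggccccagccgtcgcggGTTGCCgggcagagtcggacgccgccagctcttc
BBS10: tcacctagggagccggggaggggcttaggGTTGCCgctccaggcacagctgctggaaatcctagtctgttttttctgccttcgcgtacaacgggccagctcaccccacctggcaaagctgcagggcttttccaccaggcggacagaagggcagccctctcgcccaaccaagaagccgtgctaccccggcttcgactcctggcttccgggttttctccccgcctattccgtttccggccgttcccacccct
DYNC2H1: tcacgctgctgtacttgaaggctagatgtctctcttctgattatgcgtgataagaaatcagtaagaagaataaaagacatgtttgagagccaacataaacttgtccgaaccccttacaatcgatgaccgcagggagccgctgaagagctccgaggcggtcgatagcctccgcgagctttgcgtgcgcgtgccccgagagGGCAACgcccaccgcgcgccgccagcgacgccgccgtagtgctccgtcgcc
ARL6: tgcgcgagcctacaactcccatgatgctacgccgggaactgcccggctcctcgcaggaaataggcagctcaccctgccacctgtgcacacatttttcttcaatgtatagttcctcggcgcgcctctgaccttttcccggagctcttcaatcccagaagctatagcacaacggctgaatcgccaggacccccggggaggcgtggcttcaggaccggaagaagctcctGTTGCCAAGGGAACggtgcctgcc
The TTC8 window is chr14:88824401-88824650 on the plus strand, and its arm begins 34 bases before the start. This window lies inside the annotated gene. The other TTC8 window, chr14:88823903-88824152, ends directly before the annotated gene start and held no arm. In BBS10 (chr12:76348416-76348665, minus strand) the arm begins 221 bases before the start. In DYNC2H1 (chr11:103109176-103109425, plus strand) the arm is on the opposite strand and its stretch begins 51 bases before the start. The ARL6 window (chr3:97764508-97764757, plus strand) belongs to the more downstream of its RefSeq starts, and its match begins 24 bases before it. TTC8 and BBS10 lay higher in both shNME7 libraries, and DYNC2H1 and ARL6 lower. They were picked for a match and for groups that did not overlap, and a link of the arm to direction was not tested.

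The question was whether the transport genes differed between cells with less NME7 mRNA and control cells. None of the tested members passed the threshold. Of the 34 members, 32 had a mean of at least 1 FPKM and were tested, while BBS1 and BBS5 were not. In limma-trend, 0 of 32 had an adjusted p under 0.05, against 0 of 12866 genes (0%). The smallest adjusted p of a member was 0.795, for IFT43. At an unadjusted p under 0.05 the count was 0 of 32, where 6.68% of all tested genes passed. In limma-voom 16 of 15112 genes passed (0.106%) and 0 of the 33 members that it tested (BBS1 among them), with a smallest adjusted p of 0.652.

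The differences were also small on the log2(FPKM + 1) scale. There the log2 difference of shNME7 minus shCtrl ran from -0.18 for DYNC2H1 to 0.32 for IFT43. In limma-voom these 2 genes were at -0.32 and 0.46. Of the 32 members, 19 lay higher and 13 lower, and 52.2% of all tested genes lay higher. The median difference was 0.02 over the members and 0.01 over all tested genes, and the median absolute difference was 0.09 over the members and 0.14 over all. The pseudocount of 1 understates the change of low genes. Members had a median level of 3.43 FPKM, against 6.79 FPKM for all tested genes. All 32 of the 95% intervals stayed between -1 and 1, as did those of 11855 of all 12866 tested genes. The lowest bound of a member was -0.69 for BBS12 and the highest 0.72 for IFT43. In limma-voom the outermost bounds were -0.93 and 0.95. Such intervals bound the differences but do not show that the groups are alike.

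**Figure D1:**
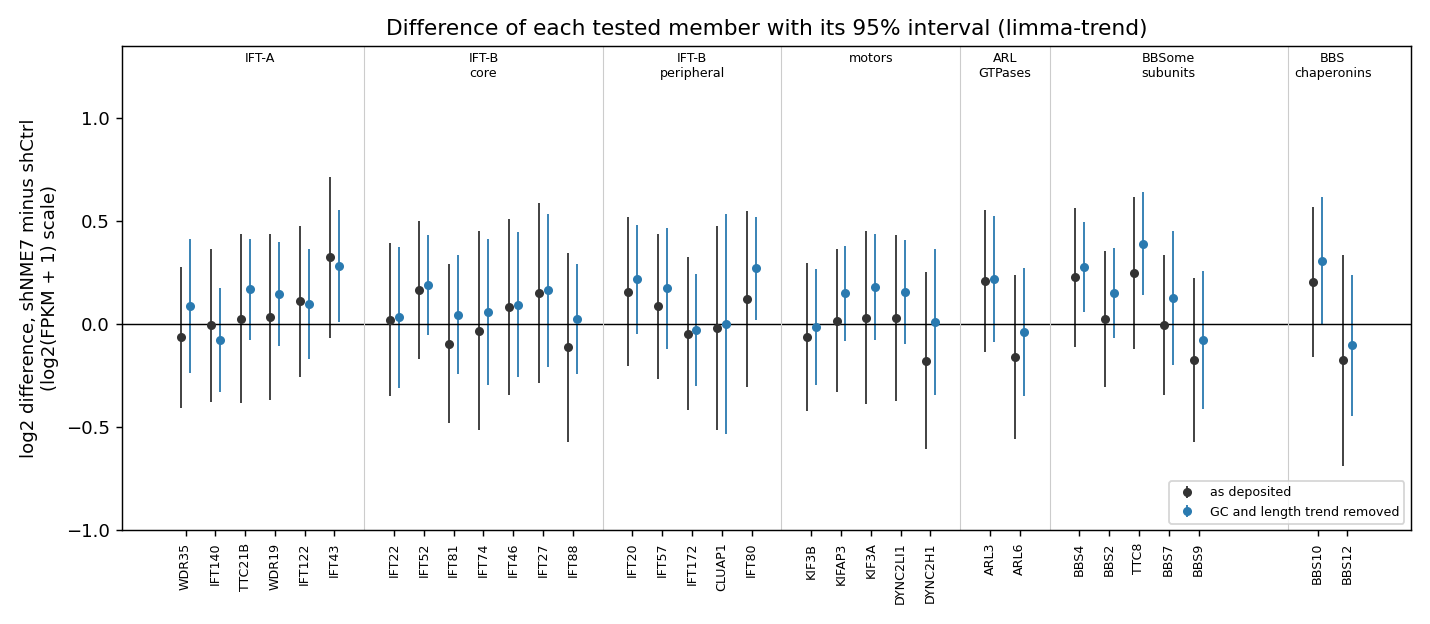
Difference of each of the 32 tested members, shNME7 minus shCtrl, on the log2(FPKM + 1) scale (y axis), by subcomplex (x axis). Points are limma-trend estimates and bars their 95% intervals, in black from the values as deposited and in blue after removal of the GC and length trend. The black intervals all cross 0 and lie within -0.69 and 0.72.

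For 9 of the 32 tested members both shNME7 libraries exceeded both shCtrl libraries, which held for 17.8% of all tested genes. For 3 of 32 they were below both, which held for 18.4% of all tested genes. The sum over all 34 members was 129.9 and 138.2 FPKM in shCtrl and 145.2 and 135.6 FPKM in shNME7, so the groups overlapped. The direction of most members depended on which library was left out. Without shCtrl 1, 13 of 32 lay higher, without shCtrl 2 it was 25, without shNME7 1 it was 14 and without shNME7 2 it was 22, and the median over members was -0.02, 0.10, -0.02 and 0.09 in turn. Leaving out 1 library assumes that the lone library of that group varies like the other group.

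**Figure D2:**
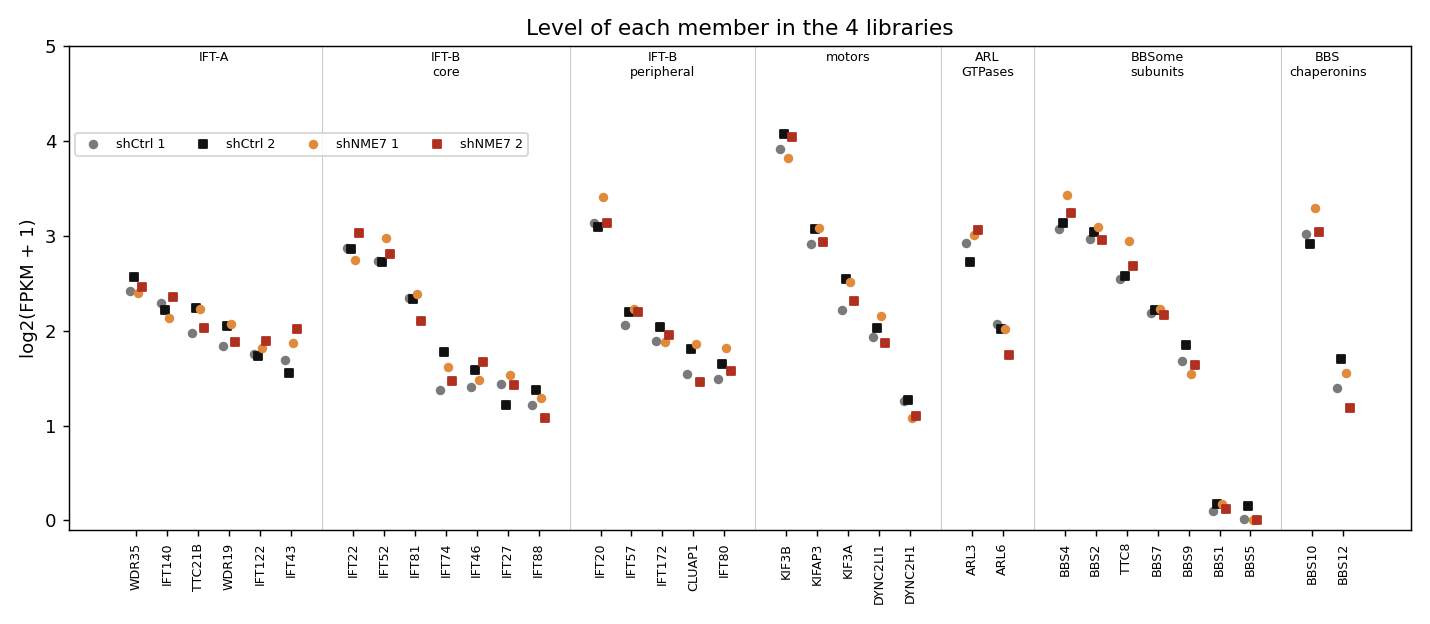
Level of each of the 34 members as log2(FPKM + 1) (y axis) in the 4 libraries, by subcomplex (x axis). Each point is 1 library. Points of both groups interleave for most members, KIF3B is the highest and BBS1 and BBS5 lie near 0.

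Among the 6 IFT-A genes, which act in return transport and in the entry of membrane proteins, 4 lay higher and 2 lower, and the median difference was 0.03. IFT43 (ENSG00000119650, chr14:75902136-76084585, plus strand, GRCh38), a small subunit of the complex, was at 2.23 and 1.93 FPKM in shCtrl and at 2.65 and 3.06 FPKM in shNME7. Both shNME7 libraries were above both shCtrl libraries, the mean was 1.37-fold higher, and the log2 difference was 0.32 ± 0.16 (SE, n = 2 per group), which did not pass the limma-trend test. IFT122 (ENSG00000163913, chr3:129440036-129520507, plus strand), a core subunit, was at 2.38 and 2.32 FPKM in shCtrl and at 2.52 and 2.71 FPKM in shNME7. Its groups did not overlap either, yet its log2 difference of 0.11 ± 0.15 (SE, n = 2 per group) was smaller than its error. The other 4 overlapped between groups: IFT140, WDR19, WDR35 and TTC21B differed by -0.06 to 0.03. In TTC21B and WDR19 shCtrl 1 was the lowest library, at 2.93 FPKM for TTC21B and 2.58 FPKM for WDR19. The IFT-A sum was 18.4 and 19.6 FPKM in shCtrl and 19.7 and 20.1 FPKM in shNME7.

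The IFT-B core holds the train together and, through IFT74 and IFT81, binds tubulin as cargo. Of its 7 genes, 4 lay higher and 3 lower, with a median difference of 0.02. IFT52 (ENSG00000101052, chr20:43590931-43647296, plus strand), which joins core subunits, was at 5.64 and 5.61 FPKM in shCtrl and at 6.86 and 6.02 FPKM in shNME7. It was the only core gene without overlap between the groups, and its log2 difference was 0.17 ± 0.14 (SE, n = 2 per group). The tubulin-binding pair differed in which libraries stood apart. IFT74 was lowest in shCtrl 1 at 1.59 FPKM and highest in shCtrl 2 at 2.42 FPKM, whereas IFT81 was at 4.06, 4.03 and 4.22 FPKM in shCtrl 1, shCtrl 2 and shNME7 1 and at 3.28 FPKM in shNME7 2. IFT88, whose loss abolishes cilia in mice, had a log2 difference of -0.11 and a range of 1.11 to 1.59 FPKM. The small GTPase-like subunits IFT22 and IFT27 differed by 0.02 and 0.15, and IFT46 by 0.08, each with overlapping libraries.

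In the IFT-B peripheral complex, which contacts kinesin-2 and the BBSome, 3 of 5 genes lay higher and 2 lower, and the median was 0.09. IFT20 (ENSG00000109083, chr17:28328325-28335489, minus strand), a subunit also found at the Golgi, was at 7.77 and 7.53 FPKM in shCtrl and at 9.59 and 7.79 FPKM in shNME7. The shNME7 2 library exceeded the higher control by a small margin only, and the log2 difference was 0.16 ± 0.15 (SE, n = 2 per group). IFT57 (ENSG00000114446, chr3:108160812-108222570, minus strand) was at 3.15 and 3.59 FPKM in shCtrl and at 3.67 and 3.60 FPKM in shNME7, for a log2 difference of 0.09. Here shCtrl 1 alone stood below, and the other 3 libraries were close together. IFT80, IFT172 and CLUAP1 overlapped, with log2 differences of 0.12, -0.05 and -0.02. Without shNME7 1 the median of the 5 genes was -0.0019, and without shNME7 2 it was 0.1804, so its sign rested on shNME7 1.

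Kinesin-2 consists of the motor subunits KIF3A and KIF3B with the adaptor KIFAP3, and dynein-2 is represented by its heavy chain DYNC2H1 and its light intermediate chain DYNC2LI1. KIF3B (ENSG00000101350, chr20:32277664-32335011, plus strand) had the highest level of all members, at 14.04 and 15.8 FPKM in shCtrl and at 13.1 and 15.4 FPKM in shNME7. The groups overlapped, and the log2 difference was -0.06. DYNC2H1 (ENSG00000187240, chr11:103109410-103479863, plus strand), the dynein-2 motor itself, had the lowest level of the tested members, at 1.39 and 1.42 FPKM in shCtrl and at 1.11 and 1.14 FPKM in shNME7. Libraries of a group agreed closely and the groups did not overlap. The log2(FPKM + 1) difference was nevertheless -0.18 ± 0.18 (SE, n = 2 per group); limma-trend draws the error towards that of genes at a like level, and DYNC2H1 did not pass. The other 3 motor genes overlapped and differed by 0.02 to 0.03, and the motor median was 0.02.

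The GTPases ARL3 and ARL6 lay on opposite sides. ARL3 (ENSG00000138175, chr10:102673731-102714407, minus strand), which releases lipid-modified cargo inside the cilium, was at 6.60 and 5.61 FPKM in shCtrl and at 7.04 and 7.35 FPKM in shNME7. Its log2 difference was 0.21 ± 0.14 (SE, n = 2 per group). ARL6 (ENSG00000113966, chr3:97764521-97801242, plus strand), which recruits the BBSome to membranes, was at 3.19 and 3.05 FPKM in shCtrl and at 3.04 and 2.36 FPKM in shNME7. The groups were separated by a margin of hardly any size, since shCtrl 2 and shNME7 1 almost coincided, and the log2 difference was -0.16 ± 0.16 (SE, n = 2 per group). Neither passed the test.

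Of the 7 BBSome subunits, 5 were tested, with 3 higher, 2 lower and a median of 0.02. TTC8 (ENSG00000165533, chr14:88824153-88881078, plus strand) and BBS4 (ENSG00000140463, chr15:72686179-72738476, plus strand), both tetratricopeptide-repeat subunits, stood highest in shNME7 1. TTC8 was at 4.85 and 4.97 FPKM in shCtrl and at 6.71 and 5.39 FPKM in shNME7, a log2 difference of 0.25 ± 0.15 (SE, n = 2 per group). BBS4 was at 7.41 and 7.80 FPKM in shCtrl and at 9.73 and 8.43 FPKM in shNME7, a log2 difference of 0.23 ± 0.14 (SE, n = 2 per group). BBS9 (ENSG00000122507, chr7:33129244-33606068, plus strand), which forms the core with BBS2 and BBS7, was at 2.21 and 2.60 FPKM in shCtrl and at 1.91 and 2.12 FPKM in shNME7. It was lower in both shNME7 libraries, with a log2 difference of -0.17 ± 0.16 (SE, n = 2 per group), while its partners BBS2 and BBS7 differed by 0.02 and 0.00 with overlapping libraries.

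The remaining subunits were barely detected. BBS1, which contacts ARL6, rested on 7 and 13 fragments in shCtrl and on 12 and 9 fragments in shNME7, or 0.0716, 0.131, 0.130 and 0.0862 FPKM. BBS5, which binds membrane lipids, rested on 1 and 8 fragments in shCtrl and on 0 in both shNME7 libraries, where a count of 0 allows up to 3 fragments. No fold is given for either. Their low values stand against FPKM means of 2.21 to 8.34 for the other 5 subunits of the same complex. However, BBS1 shared 64.5% of its exon bases with other genes and BBS5 shared 21.9%. Their values are therefore uncertain, and whether reads in shared exons were dropped was not tested.

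The chaperonin-like proteins BBS10 and BBS12 assemble the BBSome core. BBS10 (ENSG00000179941, chr12:76344474-76348442, minus strand) was at 7.08 and 6.54 FPKM in shCtrl and at 8.83 and 7.21 FPKM in shNME7, and the log2 difference was 0.20 ± 0.15 (SE, n = 2 per group). The lower shNME7 library was only slightly above the higher shCtrl library. BBS12 was at 1.63 and 2.24 FPKM in shCtrl and at 1.94 and 1.27 FPKM in shNME7, so the groups overlapped, and its log2 difference was -0.18.

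Libraries of the same group differed as much as the groups did. The SD over members of the difference between 2 libraries was 0.15 for the shCtrl pair and 0.19 for the shNME7 pair, against 0.14 to 0.21 for pairs across groups. The shNME7 1 library had the highest value for 15 of the 32 tested members, shCtrl 2 for 10, shNME7 2 for 6 and shCtrl 1 for 1. Over all tested genes these shares were 21.3%, 29.4%, 34.5% and 14.7%. Both shNME7 1 and shCtrl 2 stood above the other 2 libraries for 12 of 32 members (37.5%) and for 23.2% of all tested genes. The same 2 libraries had the highest share of fragments from mitochondrial genes, 6.59% in shNME7 1 and 5.92% in shCtrl 2, against 4.76% in shCtrl 1 and 4.24% in shNME7 2. The part of this share in the members' order was not tested.

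**Figure D3:**
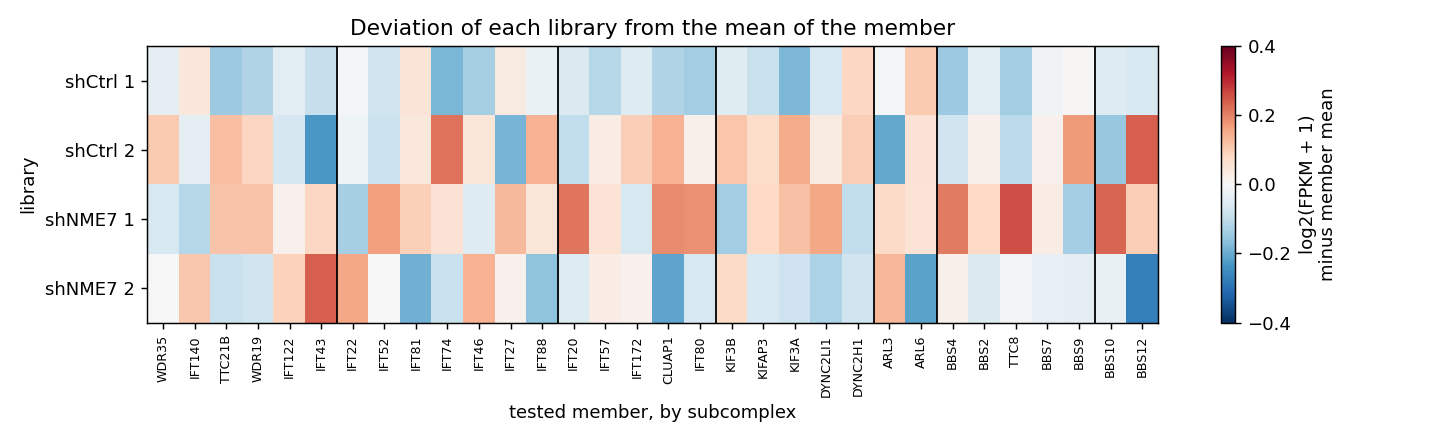
Deviation of each library (rows) from the mean of each tested member (columns, by subcomplex), in log2(FPKM + 1). Red is above and blue below the mean of the member. The shNME7 1 row is mostly red and the shCtrl 1 row mostly blue, whereas shCtrl 2 and shNME7 2 are mixed, shCtrl 2 with the more red cells.

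GC content moved with the comparison over all genes, so it was checked beside the members. Across 12857 tested genes the Spearman rho between the GC content of the longest transcript and the log2 difference was 0.41, and it was -0.03 after a smooth trend on GC content and length had been removed within each library. Genes are not independent replicates, and these values are descriptions. Members were poor in GC, with a median of 41.5% against 48.1% for all tested genes, and 23 of 32 lay below the median of all. Across the 32 members rho was 0.19, and -0.18 after removal. Genes with less than 40% GC had a median difference of -0.10 over all 2110 of them, while the 13 members in that range had a median of 0.02. The other 19 members had a median of 0.03, and all genes with at least 40% GC had 0.04.

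With the trend removed, 25 of 32 members lay higher and 7 lower, and their median moved to 0.14, beside 55.8% higher and a median of 0.02 for all tested genes. The 13 GC-poor members went from 7 to 12 higher and from a median of 0.02 to 0.15, and the other 19 from 12 to 13 higher and to a median of 0.10. All 7 IFT-B core genes lay higher after removal. At an unadjusted p under 0.05 in limma-trend, 4 of 32 members passed, namely TTC8, BBS4, IFT80 and IFT43, where 12.4% of all tested genes passed, so the share was near the background. TTC8 had the smallest adjusted p, 0.310, at a log2 difference of 0.39. DYNC2H1 went from -0.18 to 0.01, and ARL6 and BBS9 stayed below 0 at -0.04 and -0.08. In limma-voom with the same trend removed, DYNC2H1 remained below 0, at -0.09. The split of members into higher and lower therefore depended on this correction, and the count past the adjusted threshold was 0 with and without it.

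**Figure D4:**
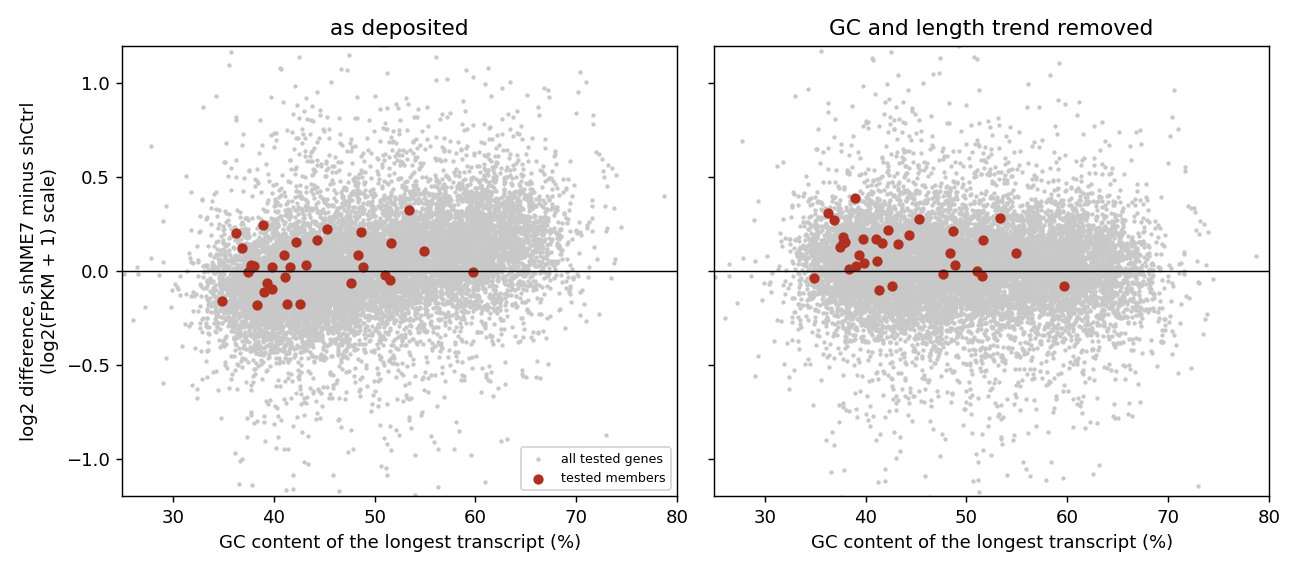
Log2 difference, shNME7 minus shCtrl, on the log2(FPKM + 1) scale (y axis) against the GC content of the longest transcript in percent (x axis), as deposited (left) and with the GC and length trend removed (right). Grey points are all tested genes, red points the 32 tested members, and genes beyond the axis limits are not drawn. The grey cloud slopes upward on the left (rho 0.41) and not on the right (rho -0.03), where 25 of 32 members lie above 0.

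After trend removal the medians of the subcomplexes were 0.12 for IFT-A, 0.06 for the IFT-B core, 0.17 for the IFT-B peripheral complex, 0.15 for the motors, 0.09 for the ARL GTPases, 0.15 for the BBSome subunits and 0.10 for the chaperonins. Before it they lay between 0.01 and 0.09. No subcomplex was tested against another, and none had a called gene. With 2 to 7 tested genes each, the medians are descriptions of these libraries.

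Levels of the members, as FPKM over the summed exon length, ran from a mean of 1.26 (DYNC2H1) to 14.6 (KIF3B) among those tested, with a median of 3.43 against 6.79 for all tested genes. In the order of mean levels, only 2 neighbouring pairs had ranges over the 4 libraries that did not overlap: KIF3B was above BBS4, and DYNC2H1 was above BBS1. The ranges of all other neighbours overlapped, although some of them, such as IFT52 above TTC8, kept their order within each library. After KIF3B came BBS4 at 8.34 ± 1.02 (SD, n = 4), IFT20 at 8.17 ± 0.953 and BBS10 at 7.41 ± 0.988 FPKM. At the low end BBS12 at 1.77 ± 0.416, IFT27 at 1.66 ± 0.239 and IFT88 at 1.36 ± 0.205 FPKM preceded DYNC2H1 at 1.26 ± 0.163 FPKM. The 3 kinesin-2 genes stood above both dynein-2 members, an order that the choice of length reversed for KIF3A and DYNC2LI1.

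The order depended on the length used. The summed length counts the exons of every annotated transcript, and a choice made after seeing the data scaled the same fragments to the principal transcript of each gene instead. Fragments from exons outside the principal transcript stayed in the count, so this scale can overstate genes with many such bases. IFT27 has 8009 summed exon bases and a principal transcript of 1113 bases, and its mean went from 1.66 to 11.9 FPKM. IFT43 went from 2.47 to 12.4 FPKM. On this scale IFT20 was highest at 30.9 ± 3.61 (SD, n = 4), followed by IFT22 at 23.2 ± 2.22 and BBS2 at 19.9 ± 1.02 FPKM, and KIF3B came next at 14.6 ± 1.23 FPKM. DYNC2H1 remained the lowest of the tested members at 1.42 ± 0.183 FPKM. Spearman's rho between both scales was 0.73 across 32 members, a description over genes that share the same fragments. KIF3A was at 4.67 and DYNC2LI1 at 9.90 FPKM. A ratio of FPKM between libraries is the same on both scales, but a difference of log2(FPKM + 1) is not. The limma-trend differences given here used the summed exon length.

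**Figure D5:**
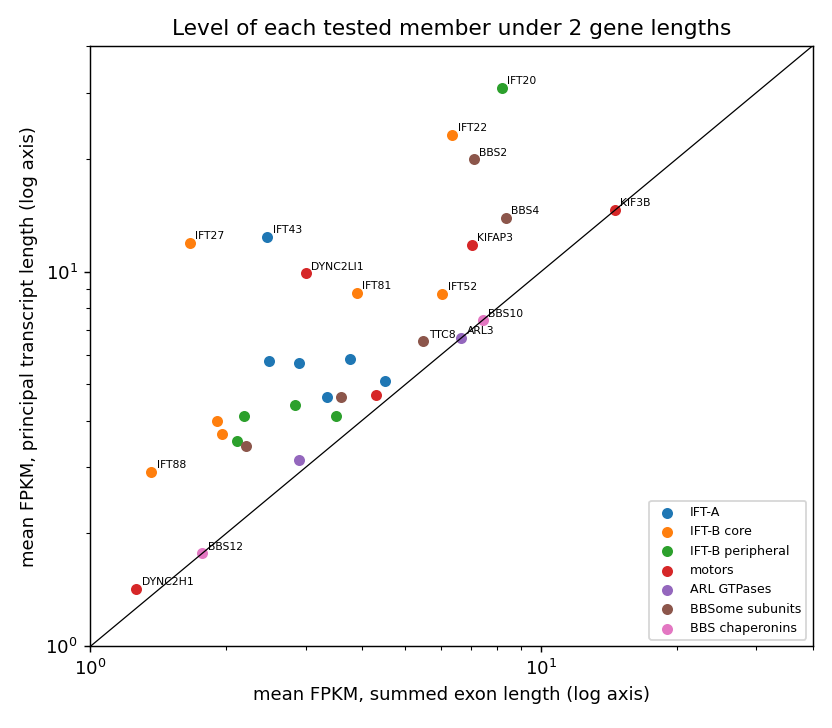
Mean FPKM of each tested member over 4 libraries with the principal transcript length (y axis, log scale) against that with the summed exon length (x axis, log scale), coloured by subcomplex, with some of the points named. The line marks equal values. IFT27, IFT43, IFT20 and IFT22 lie far above it and KIF3B, BBS10 and BBS12 on it.

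Some values are uncertain because exons overlap other genes and neither the strand setting nor the counting rule is given. The median member shared 0% of its exon bases with another gene, as did the median tested gene. BBS1 shared 64.5% of its exon bases and 96.7% of its principal transcript with other genes, mostly with AP002748.4 on the same strand, which was listed at 0 in all 4 libraries. BBS5 shared 21.9% with AC093899.2, also at 0 throughout. IFT80 shared 35.7%, mainly with AC079594.2 on the same strand, and CLUAP1 shared 16.2%. IFT20 shared 11.2% of its exon bases and 41.0% of its principal transcript with TMEM97 on the other strand, which was at 32.7 to 37.9 FPKM. The values of these members are therefore uncertain. Whether reads in shared exons were dropped was not tested.

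Other genes of the pathway, from lists chosen with earlier results of these data known, gave 0 called genes in limma-trend, and the smallest adjusted p among them in limma-voom was 0.322. Of 22 further IFT, motor and BBS genes, 20 were tested, 12 lay higher and 8 lower, the median was 0.04 and 1 of 20 passed an unadjusted p under 0.05, beside 6.68% of all tested genes. DYNLL1, a dynein light chain shared with other complexes, was at 33.3 and 30.3 FPKM in shCtrl and at 36.0 and 49.7 FPKM in shNME7, a log2 difference of 0.40, with shNME7 2 the highest. TULP3, which brings membrane proteins to IFT-A, was at 12.1 and 13.1 FPKM in shCtrl and at 9.39 and 9.70 FPKM in shNME7, a log2 difference of -0.37 with an adjusted p of 0.728. HSPB11, an IFT-B subunit, was at 8.33 and 7.05 FPKM in shCtrl and at 9.71 and 9.86 FPKM in shNME7, a difference of 0.32. These 3, named for their large differences, had no overlap between groups. Of the 20 tested, 5 were higher in both shNME7 libraries and 3 were lower in both, beside 17.8% and 18.4% of all tested genes. DYNLL1 and TULP3 differed by more than any tested member, and HSPB11 by more than any but IFT43. The near-identical copies TTC30A and TTC30B may share reads and are uncertain.

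Of 23 genes of the transition zone and basal body, which gate the cilium and anchor it, 22 were tested, with 14 higher, 8 lower and a median of 0.06. B9D1, a transition-zone subunit, was at 7.80 and 6.59 FPKM in shCtrl and at 9.63 and 14.6 FPKM in shNME7, a log2 difference of 0.65 ± 0.21 (SE, n = 2 per group). OFD1, a centriolar protein, was at 8.99 and 10.3 FPKM in shCtrl and at 7.58 and 6.72 FPKM in shNME7, a difference of -0.38. CC2D2A differed by -0.19. The adjusted p was at least 0.728 for each, and 2 of 22 passed an unadjusted p under 0.05, beside 6.68% of all tested genes.

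Hedgehog signalling, which vertebrate cells read through the primary cilium, was sparsely expressed. Only 5 of 13 genes were tested, with 2 higher, 3 lower and a median of -0.07. SMO, the signal-transducing receptor, and the ligand SHH were listed at 0 in all 4 libraries. GLI3, whose protein is processed at the cilium, was at 2.26 and 2.57 FPKM in shCtrl and at 1.49 and 1.46 FPKM in shNME7, a log2 difference of -0.46 ± 0.17 (SE, n = 2 per group) with an adjusted p of 0.728. KIF7 and SUFU differed by 0.15 and -0.12 and overlapped. Of 9 RFX and ciliogenesis regulators, 6 were tested, with 2 higher, 4 lower and a median of -0.15. MCIDAS, a switch for multiciliated cells, was at 2.70 and 2.43 FPKM in shCtrl and at 1.56 and 2.17 FPKM in shNME7, a difference of -0.32, although FOXJ1 was at 0 in every library. MYB and RFX1 differed by -0.25 and -0.20, and RFX1 overlapped between groups.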

How the data were processed

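RNA of 2 shNME7 and 2 shCtrl libraries was sequenced (total RNA per the labels), and groups and replicate numbers came from the sample titles. The authors deposited 1 table of FPKM values per library, with the unit given per the file headers. HISAT2 2.0.5 and the build hg18 are listed in the submitters' processing notes. Which tool counted fragments, with what annotation and strand setting, is not given in the sources used here. GENCODE release 29 (GRCh38) contains all 58735 gene IDs and gave names, coordinates and exon lengths. FPKM multiplied by summed exon length gave whole multiples of 1 step for 100% of values above 0 (tolerance 0.01), which recovered the fragments. The deposited values thus match the exon lengths of release 29, a GRCh38 annotation, although hg18 is the listed build. Totals of 14877906 to 16991397 fragments limit the precision.

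Genes with a mean of at least 1 FPKM over the libraries (12866) were tested in limma-trend (limma 3.58.1, R 4.3.3) on log2(FPKM + 1), shNME7 minus shCtrl, two-sided, with Benjamini-Hochberg adjustment over all of them and a threshold of 0.05. A pseudocount of 1 understates the change of low genes. Limma-voom was run on genes that averaged 10 or more fragments. For the GC check a loess trend (span 0.3) on GC content and length was removed from each library. The other alternatives were a pseudocount of 0.1, no filter, protein-coding genes only, a replicate block, and each library left out. The principal transcript length and the crossed block were added after seeing the data. Motifs and tables were handled in Python 3.11.15.

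All members are named. Values in every library are given for members past the threshold, members whose groups did not overlap, the member with the greatest absolute difference in each subcomplex and the member with the highest mean. Of each further list, up to 3 tested genes with the greatest absolute difference are named, and NME7 in any case. Members and lists were chosen with earlier results of these data known. DYNC2I1, DYNC2I2 and DYNLT2B were matched by their older symbols. Protein sequences were not used here.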

Additional observations from a re-analysis of the deposited data

How the results depend on the processing

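Of the 32 tested members, 0 were called under every alternative run, and 12 kept their sign under all 12 alternatives (10 higher, 2 lower, the latter ARL6 and BBS9). The smallest adjusted p of a member under any of them was 0.221. The number of genes called over all genes tested, 0 in limma-trend, was 122 with the replicate block, 16 in limma-voom, 11 in limma-voom after GC and length correction, 11 among protein-coding genes only, and 112 to 632 when 1 library was left out (133 without shCtrl 1, 112 without shCtrl 2, 632 without shNME7 1 and 277 without shNME7 2). The cause was not tested. The crossed replicate block, added after seeing the data, called 0 genes.

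The titles number the replicates 1 and 2 in both groups, but nothing says that equal numbers share a culture or day. The correlation of the deviations of same-numbered libraries was -0.35 over 12866 genes. With the replicate block the median over members stayed at 0.0237.

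The median over the members was 0.1361 after GC and length correction, 0.1645 in limma-voom with that correction, over 33 members, and 0.1361 with the replicate block and that correction. In corrected limma-voom the IFT-B peripheral median was 0.2291 and the BBSome median 0.1671. Without 1 library the IFT-B peripheral median ran from -0.0019 to 0.1804.

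GC and length correction, with the replicate block or without it, turned these members from lower to higher: IFT74 (0.0562), IFT81 (0.0452), IFT88 (0.0260), WDR35 (0.0861), DYNC2H1 (0.0090) and BBS7 (0.1269). Those values are from limma-trend. In corrected limma-voom IFT74 was at 0.0781, IFT81 at 0.0375, WDR35 at 0.0961 and BBS7 at 0.1615, but DYNC2H1 and IFT88 stayed below 0, at -0.0921 and -0.0380. The causes were not tested.

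Of the further lists, only the genes named for their large differences are covered here. Leaving out 1 library changed the sign of 18 members and, among those named genes, of KIF7 and RFX1. Their log2 differences ran from -0.1225 to 0.1641 for IFT22, -0.0109 to 0.1798 for IFT46, -0.2345 to 0.1671 for IFT74, -0.0019 to 0.2444 for IFT80, -0.2381 to 0.0483 for IFT81, -0.1175 to 0.1050 for IFT140 and -0.1235 to 0.0294 for IFT172. They ran from -0.0683 to 0.1364 for WDR19, -0.1355 to 0.0059 for WDR35, -0.1081 to 0.1568 for TTC21B, -0.2191 to 0.1804 for CLUAP1, -0.1324 to 0.1952 for KIF3A, -0.1694 to 0.0456 for KIF3B and -0.0646 to 0.0980 for KIFAP3. For DYNC2LI1 they ran from -0.1132 to 0.1698, for BBS2 from -0.0464 to 0.0924, for BBS7 from -0.0337 to 0.0270, for BBS12 from -0.3631 to 0.0097, for KIF7 from -0.0010 to 0.3095 and for RFX1 from -0.4673 to 0.0677. Members with 74 fragments in a library have wide counting error, and BBS1 and BBS5 could not be tested at this depth.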

Other observations

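DYNC2I2, an intermediate chain of dynein-2, was at 112.6 and 85.5 FPKM in shCtrl and at 101.0 and 139.3 FPKM in shNME7. It lay far above the dynein-2 genes DYNC2H1, DYNC2LI1 and DYNC2I1, which were between 1.11 and 4.89 FPKM. Of the listed dynein light chains, DYNLL1 was at 30.3 to 49.7 FPKM and DYNLRB1 at 16.9 to 21.6 FPKM. DYNLL2 was at 10.1 to 11.4 FPKM and DYNLT2B at 1.49 to 2.32 FPKM. The groups of DYNC2I2 overlapped. It was singled out after its values were seen.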
